A study of Homo sapiens with 24 samples.

Results

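RNA-seq libraries of ACHN cells in which KDM5C was depleted (shKDM5C) were compared with libraries of ACHN cells that carry a control hairpin (shNC). ACHN is an established human renal cancer cell line, labelled ccRCC by the submitters, and was grown in DMEM with fetal bovine serum. The comparison rests on 6 of the 24 libraries of the series, 3 shNC and 3 shKDM5C, chosen by their labels. All 6 come from 1 cell line that was infected with hairpin lentivirus (pLKO.1) and selected with puromycin, so shNC cells share the vector and the selection with shKDM5C cells. The methods give 2 hairpins against KDM5C and do not state which one was sequenced, and nothing states that the 3 libraries of a group came from separate infections, so p-values measure only the spread between these libraries, which may be technical. The question is which genes and pathways change when KDM5C alone is lowered. A further 6 ACHN libraries served as another setting in which KDM5C was lowered: shYY1 cells, which carry a hairpin against the transcription factor YY1, and Dsh cells, made by infecting YY1-depleted cells with a GFP-labelled KDM5C hairpin. HK-2 cells, an immortalised line of human proximal tubule epithelium, gave 3 shNC and 3 shKDM5C libraries for comparison.

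KDM5C is an X-linked enzyme that removes methyl groups from lysine 4 of histone H3. This methylation marks active promoters and enhancers, and its loss is usually tied to lower transcription. KDM5C is recurrently mutated in clear cell renal cell carcinoma, it forms complexes with the repressor REST, and it is known for silencing germline genes outside the germline. Genes were grouped by lists for the cell cycle, metabolism, immune signalling, matrix, kidney lineage, cell surface signalling, histone H3 lysine 4 enzymes, germline genes and REST targets. These lists were chosen with earlier results of these data known, so they are descriptions and not predictions.

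The 6 libraries held between 18583347 and 19363570 counts, and the mitochondrial genome took 6.65% to 7.40% of them. KDM5C stood at 69.9, 69.9 and 69.0 CPM (the share of a library's counts, scaled to a common total) in the shNC libraries and at 41.1, 43.5 and 41.9 CPM in the shKDM5C libraries, so 60.5% of the control level remained (-0.73 on the log2 scale with a standard error of 0.05, edgeR adjusted p = 1.12e-12). YY1 was at 136.8 ± 3.9 CPM in shNC and 143.3 ± 4.9 CPM in shKDM5C (SD, n = 3), with an adjusted p of 0.17. Of 9 renal epithelial markers, 8 passed the filter on low counts, and their summed level was 3032 to 3085 CPM in shNC and 3510 to 3639 CPM in shKDM5C. Of these 8, KRT8 (1390 to 1939 CPM) and KRT19 (694.9 to 870.2 CPM) rose and 5 fell, with a median log2 fold change of -0.11. None of 10 leukocyte and 8 endothelial markers passed that filter, with summed levels of at most 1.40 and 1.33 CPM in any of the 6 libraries. Of 9 fibroblast markers, COL1A1, PDGFRB and THY1 passed, while COL1A2 and LUM were at 0 in all 6 libraries.

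Of 16184 genes tested, 4481 were lower (27.7%) and 4673 were higher (28.9%) in shKDM5C cells at an adjusted p below 0.05 (edgeR quasi-likelihood test). Most of these differences were small. The median absolute log2 fold change was 0.54 among the lower and 0.33 among the higher genes, and 76.5% of the lower and 94.0% of the higher genes changed by less than 2-fold. At the threshold of the study, a change of 2.83-fold or more (1.5 on the log2 scale) with an unadjusted p below 0.05, 433 genes were lower (2.68%) and 108 were higher (0.667%), and all of these also had an adjusted p below 0.05. The genes past that threshold were weakly expressed. The median control level of the 433 lower genes was 2.12 CPM and that of the 108 higher genes was 0.62 CPM (2.82 CPM in shKDM5C, their higher group), against 17.9 CPM over all genes tested (20.02 CPM in the higher group of each gene). In the following, "rose" and "fell" refer to an adjusted p below 0.05, and log2 fold changes are given as shKDM5C against shNC. The median log2 fold change of all genes tested was -0.01.

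**Figure D1:**
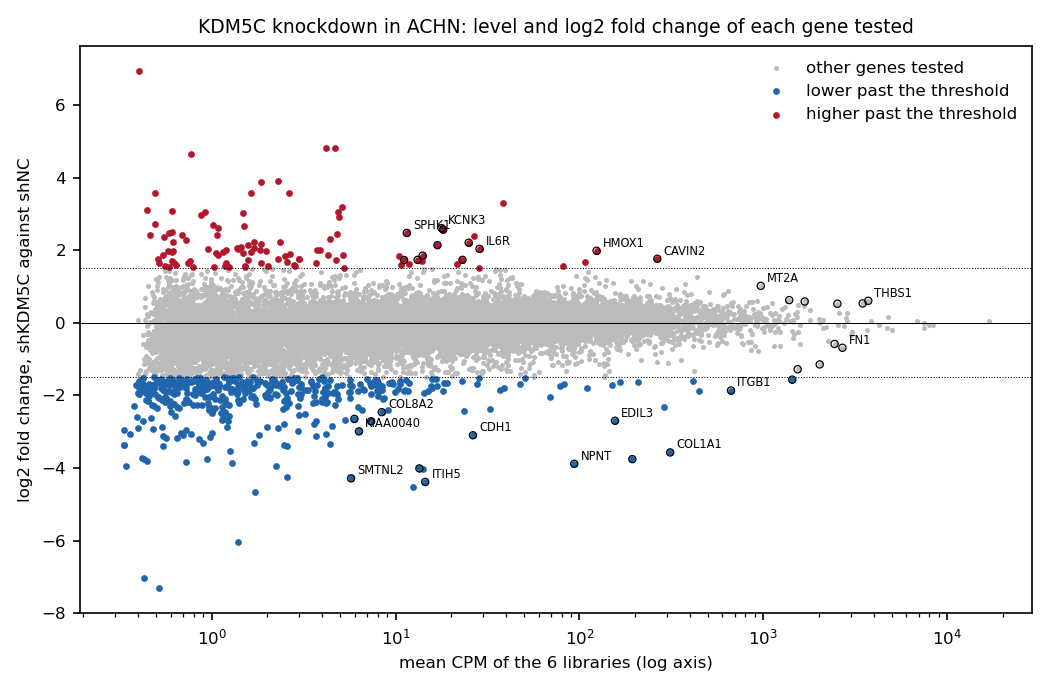
Each point is 1 of the 16184 genes tested, some of which are not drawn. The mean CPM of the 6 ACHN libraries is on a log axis and the log2 fold change of shKDM5C against shNC on the other. Dotted lines lie at 1.5 and -1.5, and circles mark the genes with the largest fold changes or CPM differences. Genes past the threshold (433 below and 108 above over all genes tested) lie mostly at low levels, while COL1A1, NPNT and EDIL3 fell from well-expressed levels.

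Among protein-coding genes with at least 10 CPM in the higher group and no overlap between the groups, 18 rose and 75 fell past the study threshold, and the 12 with the largest fold change in each direction are described. The largest rise was that of KCNK3, which encodes the acid-sensitive potassium channel TASK-1 (chr2:26692690-26733420, GRCh38, forward strand). It stood at 4.53, 5.31 and 5.11 CPM in shNC and at 30.7, 30.7 and 30.4 CPM in shKDM5C. This is a 6.11-fold rise (log2 fold change 2.61, standard error 0.09, adjusted p = 3.39e-18). ANGPTL4, a secreted inhibitor of lipoprotein lipase on chr19:8363289-8374373, went from 5.20, 5.63 and 4.79 CPM to 33.8, 32.0 and 27.5 CPM, a 5.94-fold rise. SPHK1, the kinase that makes sphingosine-1-phosphate, went from 2.99, 4.51 and 2.98 CPM to 20.1, 19.4 and 19.2 CPM. The choice of genes required that the groups do not overlap. SERPINE2, a secreted inhibitor of thrombin and plasminogen activators, rose 4.62-fold from 8.86 ± 0.45 to 41.2 ± 0.4 CPM. IL6R, the ligand-binding subunit of the interleukin-6 receptor, rose 4.11-fold from 11.2 ± 1.0 to 46.1 ± 1.4 CPM, and HMOX1, the haem-degrading enzyme haem oxygenase-1, rose 3.96-fold from 49.8 ± 0.9 to 198.2 ± 4.4 CPM (SD, n = 3). CAVIN2, a coat protein of caveolae, stood at 114.3, 122.4 and 123.8 CPM in shNC and at 405.0, 422.3 and 404.2 CPM in shKDM5C, a 3.40-fold rise (adjusted p = 3.43e-23). The other risers of this group were the transcriptional cofactor gene LBH, ZNF114, KIAA1549L, SP140, a reader of histone marks best known from lymphoid cells, and MYEOV, with rises between 3.32-fold and 4.41-fold.

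The falls were larger. ITIH5, a secreted hyaluronan-binding protein of the extracellular matrix (chr10:7559270-7666998, reverse strand), went from 27.3, 27.8 and 27.8 CPM in shNC to 1.32, 1.48 and 1.18 CPM in shKDM5C, a 20.9-fold fall (log2 fold change -4.38, standard error 0.12, adjusted p = 3.14e-20). FOLR1, the folate receptor alpha at chr11:72189558-72196301, went from 27.3, 25.2 and 23.7 CPM to 1.58, 1.81 and 1.34 CPM. NPNT, the basement membrane ligand nephronectin at chr4:105894775-106004027, went from 168.5, 180.4 and 177.8 CPM to 10.6, 13.3 and 11.9 CPM. COL1A1, the alpha 1 chain of type I collagen at chr17:50183289-50201632, went from 584.7, 594.9 and 544.8 CPM to 47.0, 51.5 and 47.3 CPM, an 11.9-fold fall with the smallest adjusted p of the comparison (7.55e-28). CDH1, which encodes the epithelial adhesion molecule E-cadherin (chr16:68737225-68835548), went from 48.9, 48.1 and 44.6 CPM to 4.65, 5.09 and 6.87 CPM, an 8.56-fold fall. EDIL3, an integrin ligand, fell 6.49-fold from 270.6 ± 2.7 to 41.9 ± 0.6 CPM. SMTNL2, KIAA0040, the semaphorin gene SEMA3B, the tetraspanin gene TSPAN18 and COL8A2, a chain of type VIII collagen, fell by factors from 5.51 to 19.5. MT-ATP8, a small subunit of the mitochondrial ATP synthase, went from 361.3, 345.4 and 377.0 CPM to 30.4, 25.6 and 24.6 CPM. Of its 207 bases, 46 are shared with MT-ATP6 (22.2%), the gene next to it on the same transcript, so its count is uncertain. MT-ATP6 rose from 4473 ± 266 to 5054 ± 155 CPM (log2 fold change 0.17).

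**Figure D2:**
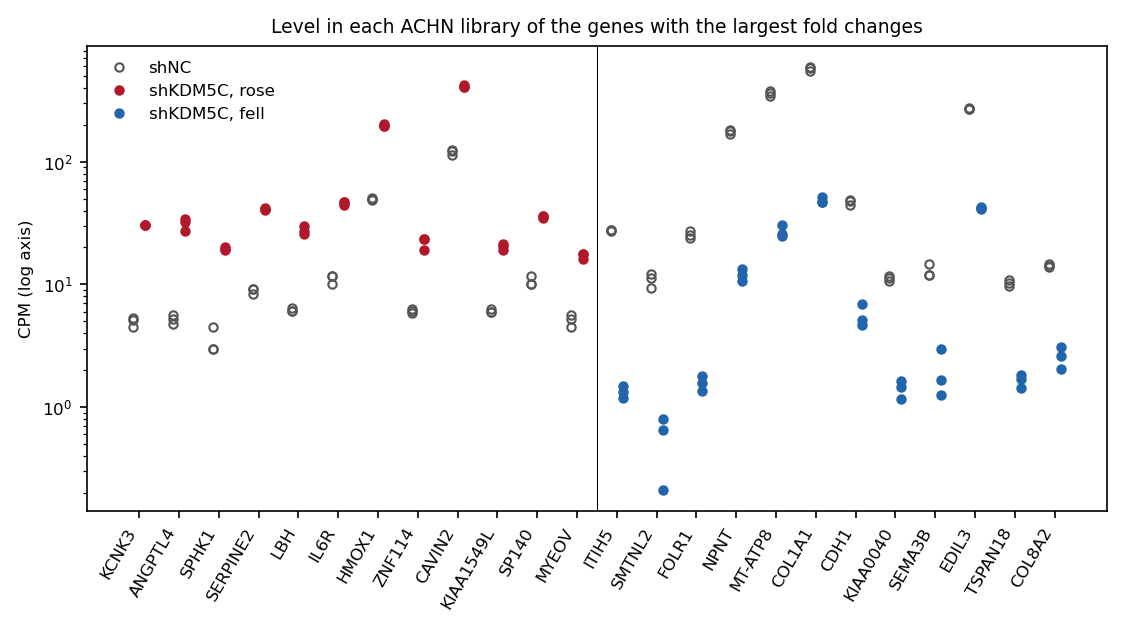
CPM on a log axis of the 12 genes that rose and the 12 that fell with the largest fold changes, 1 point per library, open for shNC and filled for shKDM5C. The genes were chosen so that the groups do not overlap, and the falls, up to 20.9-fold in ITIH5, exceed the rises, up to 6.11-fold in KCNK3.

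Differences in CPM were ranked among protein-coding genes outside the mitochondrial genome that rose or fell. In absolute terms, the largest changes among these included genes of adhesion, matrix and metabolism. THBS1, which encodes the matrix glycoprotein thrombospondin-1, rose from 2942 ± 27 to 4502 ± 48 CPM. GAPDH, a glycolytic enzyme often used as a reference gene, rose from 2892, 2759 and 2825 CPM to 4114, 4210 and 4030 CPM, a 1.45-fold rise (adjusted p = 1.83e-15). The integrin alpha 3 gene ITGA3, the ferritin light chain gene FTL, the chaperone gene HSPA8 and the metallothionein gene MT2A rose by factors from 1.44 to 2.03. IGFN1 fell from 2788 ± 52 to 1266 ± 42 CPM and FN1, which encodes fibronectin, from 3316 ± 150 to 2070 ± 2 CPM (SD, n = 3). CD24 and the type IV collagen gene COL4A1 fell by 1.28 and 0.58 on the log2 scale. GAPDH, FTL, HSPA8, MT2A and CD24 have near-identical copies or pseudogenes elsewhere in the genome, so their counts may be shared with those copies.

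ITGB1, the beta 1 subunit that pairs with many integrin alpha chains, went from 1030, 1047 and 1062 CPM in shNC to 289.2, 287.7 and 289.1 CPM in shKDM5C, a 3.64-fold fall (log2 fold change -1.86, standard error 0.03, adjusted p = 4.85e-26). Its processed pseudogene ITGB1P1, which can share its reads, fell alongside it (log2 fold change -2.43). In Dsh cells, where KDM5C was also lowered, ITGB1 stood at 1489, 1585 and 1467 CPM, above the 1288, 1335 and 1334 CPM of shYY1 cells. GNG5, a gamma subunit of heterotrimeric G proteins, and TMED2, a cargo receptor of the early secretory pathway, were chosen after their values were seen. GNG5 fell from 54.5 ± 1.5 to 10.7 ± 1.4 CPM and was at 57.2 ± 3.6 CPM in shYY1 and 48.2 ± 5.2 CPM in Dsh. TMED2 fell from 252.1 ± 5.6 to 82.5 ± 4.3 CPM and was at 218.3 ± 6.0 CPM in shYY1 and 216.4 ± 4.4 CPM in Dsh, where the log2 fold change against shYY1 was -0.01 (adjusted p = 0.78). For GNG5 that log2 fold change was -0.25 (adjusted p = 0.0077) and for ITGB1 it was 0.20. The large falls of these 3 genes in shKDM5C cells had no counterpart of like size in Dsh cells. They do not stand for all fallers. Of the 433 genes that fell past the study threshold, 375 were tested in Dsh against shYY1. There 227 of them were lower (60.5%), against 32.7% of all genes. Which hairpin each line carries is not stated, and its part in the falls of these 3 genes was not tested.

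Genes of G2 and M phase rose as a group. Of 55 genes on that list, all tested, 52 rose, CDC25A and ECT2 fell, and KIF15 was at -0.15 without passing the test, against 28.9% higher and 27.7% lower over all genes. Their median log2 fold change was 0.48. PLK1, a kinase of mitotic entry and spindle assembly, stood at 121.1, 123.2 and 126.9 CPM in shNC and at 215.5, 202.6 and 203.4 CPM in shKDM5C (log2 fold change 0.74, standard error 0.04, adjusted p = 4.40e-15). CCNB1, the mitotic cyclin B1, went from 118.9, 120.2 and 126.9 CPM to 187.0, 188.0 and 181.3 CPM. In both genes every shKDM5C library exceeded every shNC library. How many of all genes tested separate in this way was not counted. CDK1, the partner kinase of cyclin B1, rose by 0.40, the spindle kinase AURKA by 0.65, and BIRC5, which encodes survivin, by 0.52 on the log2 scale. The highest rise was 0.85, in CCNF, the cyclin subunit of a ubiquitin ligase, and no member reached the study threshold. S phase genes behaved differently in the same libraries. Of 48 tested, 16 rose and 9 fell, with a median of 0.00. RRM2 (0.73) and TYMS (0.56), which supply deoxynucleotides, rose, while the replication licensing genes MCM2 (-0.10), MCM6 (-0.35) and CDC6 (-0.59) fell and the sliding clamp gene PCNA was at 0.08 (adjusted p = 0.052).

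The promoters of G2/M genes are known to carry 2 short elements, the cell cycle genes homology region (TTTGAA) and the CCAAT box (CCAAT). In the 250 bases upstream of the RefSeq starts, searched on both strands, TTTGAA was found for 25 of the 48 G2/M genes with a promoter entry (52.1%) and CCAAT for 39 (81.2%), against 11.9% and 41.2% of 10626 protein-coding genes tested that have one. For S phase genes the shares were 5.00% and 57.5%. CCAAT was not particular to G2/M genes. It was found for 77.8% of cholesterol and fatty acid synthesis genes, which mostly fell, and 76.7% of ATF4 and unfolded protein response genes. TTTGAA was found for 11.1% and 6.67% of these 2 lists. The window of CCNB1 held no TTTGAA, and AURKA had no promoter entry. The windows of CDK1 (chr10:60778081-60778330, forward strand) and PLK1 (chr16:23678639-23678888, forward strand; GRCh38) are shown because both hold the element, in capitals, upstream of a gene that rose.
CDK1: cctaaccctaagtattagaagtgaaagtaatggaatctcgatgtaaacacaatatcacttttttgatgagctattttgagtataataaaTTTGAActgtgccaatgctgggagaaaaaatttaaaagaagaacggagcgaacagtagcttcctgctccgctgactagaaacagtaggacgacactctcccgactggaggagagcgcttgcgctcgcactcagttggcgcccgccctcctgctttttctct
PLK1: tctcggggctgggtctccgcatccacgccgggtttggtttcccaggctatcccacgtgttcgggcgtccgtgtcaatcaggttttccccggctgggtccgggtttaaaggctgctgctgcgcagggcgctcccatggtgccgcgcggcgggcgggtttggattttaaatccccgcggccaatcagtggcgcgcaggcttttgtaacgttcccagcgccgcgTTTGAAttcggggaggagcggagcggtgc
A match of these letters is a description and shows no binding.

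Genes of the apoptosis machinery rose more often than they fell. Of 43 tested, 25 rose and 7 fell, with a median of 0.31. The pore-forming effector gene BAX went from 107.9 ± 1.5 to 147.1 ± 8.8 CPM (log2 fold change 0.44, adjusted p = 1.04e-09). CASP8, the initiator caspase of death receptors, went from 68.8 ± 1.3 to 99.2 ± 3.2 CPM. The death receptor genes FAS (0.77) and TNFRSF10B (0.60) rose with them, as did the cell cycle inhibitor gene CDKN1A (0.72) and the ubiquitin ligase gene MDM2 (0.60). The pro-apoptotic genes BMF (-1.31), BCL2L11 (-0.46), CASP9 (-0.42), CASP6 (-0.30) and CASP2 (-0.17) fell. Among anti-apoptotic genes, BCL2 fell from 59.5 ± 1.6 to 42.4 ± 1.75 CPM, while MCL1 (0.34), XIAP (0.43) and BIRC3 (1.27) rose.

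Of 34 genes of cholesterol and fatty acid synthesis, all tested, 27 fell and 4 rose, with a median of -0.20. SCD, which introduces the double bond into saturated fatty acids, stood at 1493, 1482 and 1534 CPM in shNC and at 945.9, 965.1 and 995.1 CPM in shKDM5C (log2 fold change -0.64, standard error 0.03, adjusted p = 2.26e-16). The late sterol pathway genes LSS (-0.58), CYP51A1 (-0.44) and SQLE (-0.44), the desaturase gene FADS2 (-0.70) and the acetyl-CoA synthetase gene ACSS2 (-1.17) fell further than the synthase FASN (-0.14). Genes of this list that rose include the citrate lyase ACLY (0.18), NSDHL (0.25) and the elongase ELOVL6 (0.99).

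The hypoxia and glycolysis list moved both ways. Of 40 tested genes, 18 rose and 11 fell, with a median of 0.07. Glycolytic enzymes that rose include HK2 (0.50), GPI (0.40), ALDOA (0.37) and ENO1 (0.27), and so did SLC16A3 (0.90), a lactate exporter, while ENO2 (-0.69), PFKP (-0.14) and TPI1 (-0.10) fell. Among regulators and targets of hypoxia, EPAS1, which encodes HIF-2 alpha, fell by 1.33 and its partner ARNT fell by 0.79 on the log2 scale. VEGFA, the angiogenic growth factor, fell from 117.5, 116.0 and 116.5 CPM to 53.5, 56.8 and 54.5 CPM (log2 fold change -1.09, adjusted p = 2.53e-17). The glucose transporter gene SLC2A1 (-0.43) and NDRG1 (-1.31) fell as well, whereas ANGPTL4 (2.57), ADM (0.25), HIF1A (0.15), KDM3A (0.13), VHL (0.13) and EGLN1 (0.12) rose and LDHA was at -0.02 (adjusted p = 0.49). KDM5C has been linked to glycogen metabolism in renal cancer. Of 28 genes of glycogen metabolism and the pentose phosphate pathway, 7 rose and 8 fell, with a median of -0.01. The glycogen phosphorylase gene PYGL (-0.51) fell, and the branching enzyme GBE1 (0.34) and the primer GYG1 (0.49) rose.

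Among 31 tested genes of the NRF2 response, glutathione and ferroptosis defence, 12 rose and 11 fell. Besides HMOX1, the transferrin receptor TFRC rose by 0.94, FTL by 0.53 and FTH1 by 0.44 on the log2 scale, while the iron exporter SLC40A1 (-0.67) and the ferritin receptor NCOA4 (-0.72) fell. The cystine transporter gene SLC7A11 went from 20.1 ± 2.4 to 29.6 ± 2.4 CPM (log2 fold change 0.56), and GPX4, which repairs lipid peroxides, was at 194.7 ± 4.75 and 199.1 ± 10.3 CPM (adjusted p = 0.59). The lipoxygenase gene ALOX5 fell by 3.10, with a mean below 5 CPM in both groups. Genes of the amino acid and unfolded protein responses rose more often than they fell, with 20 of 34 higher, 5 lower and a median of 0.27. ATF4 (0.17), DDIT3 (0.31), TRIB3 (0.55), the folate cycle genes SHMT2 (0.48) and MTHFD2 (0.42), XBP1 (0.46) and CALR (0.59) rose, while SLC7A5 (-0.60) and ALDH1L2 (-1.04) fell and the chaperone gene HSPA5 was at 0.06 (adjusted p = 0.0605).

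Genes of MHC class I antigen presentation rose together. Of 19 tested, 16 rose, with a median of 0.32. HLA-F fell (-0.60), and ERAP2 and the class I transactivator gene NLRC5 did not pass the test (-0.10 and -0.02). B2M, the invariant light chain of class I molecules, went from 589.0, 607.7 and 577.4 CPM to 719.6, 760.0 and 694.8 CPM (log2 fold change 0.29, adjusted p = 2.51e-08). The peptide transporter gene TAP1 went from 46.1 ± 2.1 to 60.5 ± 0.5 CPM. The immunoproteasome genes PSMB8, PSMB9 and PSMB10 rose by 0.53, 0.34 and 0.72. Interferon-stimulated genes were mixed, with 15 of 39 higher, 9 lower and a median of 0.13. STING1, the adaptor of cytosolic DNA sensing, rose from 0.77, 0.80 and 0.69 CPM to 2.32, 2.36 and 2.15 CPM, levels that are low in every library, while ISG15 (-0.05) did not pass the test and IFIT1 was lower (-0.19).

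Of 32 cytokine, chemokine and NF-kB genes tested, 18 rose and 6 fell, with a median of 0.30. IL6 stood at 13.2, 13.3 and 14.0 CPM in shNC and at 34.5, 35.1 and 33.0 CPM in shKDM5C (log2 fold change 1.33, adjusted p = 2.07e-14). Another gene covers 20.7% of the exon bases of IL6, so its count is uncertain. As described above, its receptor subunit IL6R rose as well. The monocyte chemokine gene CCL2 went from 9.79, 10.9 and 10.9 CPM to 30.4, 35.5 and 32.2 CPM, and CXCL1 (1.09), CSF1 (1.23), CSF2 (1.49) and the adhesion molecule ICAM1 (1.89) also rose. ICAM1 had a mean below 5 CPM in both groups. The NF-kB subunit genes RELB (0.59), NFKB2 (0.51), NFKB1 (0.30) and RELA (0.30) and the inhibitor genes NFKBIE (1.07) and NFKBIA (0.39) rose, while the subunit gene REL fell (-0.30). IL11 (-1.30), LIF (-0.33) and CXCL16 (-0.60) fell.

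Of 43 genes of collagens, laminins and basement membrane, 27 fell and 11 rose, with a median of -0.22. Besides COL1A1, the basement membrane collagens COL4A3 (-1.94), COL4A4 (-1.12), COL4A1 (-0.58) and COL4A2 (-0.49), COL7A1 (-0.87) and the crosslinking enzyme LOXL4 (-1.32) fell. COL13A1 (2.00) and THBS1 (0.61) rose, and so did EFEMP1, a fibulin of elastic fibres, from 14.7 to 42.0 CPM. COL4A3 and COL13A1 had means below 5 CPM in both groups. The urokinase gene PLAU went from 135.9 ± 2.0 to 304.9 ± 10.5 CPM (log2 fold change 1.16, adjusted p = 1.50e-19), and its receptor PLAUR rose by 1.00 and PLAT by 0.52 on the log2 scale. The inhibitor SERPINE2 rose, as described above. PLAU shares 31.0% of its exon bases with another gene, as do DDIT3 (28.0%), VIM (25.4%) and AXIN2 (25.2%), named in other paragraphs, so these counts are uncertain. Of 25 genes of matrix proteases and their inhibitors, 13 rose and 7 fell, among them ADAMTS12 (1.70) upward and the membrane-bound metalloproteinase MMP14 (-0.78) downward. Of 38 TGF-beta and BMP genes, 14 rose and 15 fell. The receptor gene TGFBR2 (-0.73), the ligand gene BMP4 (-1.56) and the targets CCN2 (-0.62) and PMEPA1 (-1.19) fell, while the BMP antagonist NOG (1.83, with a mean below 5 CPM in both groups) and the BMP targets ID2 (0.47) and ID3 (1.40) rose. Other members did not follow 1 pattern: ID1 (0.05) did not pass the test, TGFBI (0.40) and SMAD3 (0.48) rose, and SMAD7 (-0.18) fell. TGFB1 was at -0.05 (adjusted p = 0.39). Of 30 YAP and TEAD genes, 12 rose and 14 fell.

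Epithelial and mesenchymal genes did not move as 1 programme. Of 30 tested, 11 rose and 12 fell, with a median of -0.01. E-cadherin fell and N-cadherin rose, CDH2 going from 167.8, 168.2 and 167.5 CPM to 253.5, 248.5 and 250.8 CPM (log2 fold change 0.57, adjusted p = 4.98e-14), and the mesenchymal filament gene VIM rose from 668.7 ± 13.8 to 1005 ± 12 CPM. The epithelial keratins KRT8 (0.47) and KRT7 (1.29) and the tight junction gene CLDN1 (0.54) rose as well, and the mesenchymal genes SNAI2 (-1.90) and S100A4 (-1.62) fell. EPCAM was at -0.02 and ZEB1 at 0.09, and neither passed the test. Of 21 kidney lineage transcription factors tested, 9 fell and 3 rose, with a median of -0.22. PAX2 went from 26.7, 27.7 and 28.5 CPM to 8.92, 9.04 and 8.70 CPM (log2 fold change -1.64, adjusted p = 4.79e-15), and PAX8, which marks renal tubule lineage, from 535.3 ± 7.2 to 379.4 ± 3.6 CPM. POU3F3 (-1.18) and ESRRG (-1.13) fell. Of 27 tested genes of proximal tubule transport and metabolism, 11 fell and 6 rose. FOLR1, the gluconeogenic enzyme FBP1 (-2.08) and the sodium-hydrogen exchanger SLC9A3 (-1.60) fell furthest. FBP1 and SLC9A3 had means below 5 CPM in both groups. The endocytic receptor gene CUBN was below 0.80 CPM in all 6 libraries.

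Signals at the cell surface changed gene by gene. Of 38 WNT genes, 12 rose and 14 fell. The ligand gene WNT2B went from 107.4, 113.0 and 112.3 CPM to 26.7, 27.4 and 27.2 CPM (log2 fold change -2.04, adjusted p = 7.90e-22), although a neighbouring gene covers 21.2% of its exon bases. The feedback genes AXIN2 (-2.47), NOTUM (-3.87), RNF43 (-1.57) and NKD1 (-0.97), all known WNT targets, fell, with AXIN2 at 0.98 to 2.12 CPM in shNC and 0.16 to 0.43 CPM in shKDM5C. NOTUM and RNF43 were also weakly expressed, with means below 5 CPM in both groups. The antagonist gene DKK1 rose from 7.54 ± 0.21 to 21.2 ± 1.8 CPM. On the same list ZNRF3 (-0.32) fell, LGR4 (0.51) and AXIN1 (0.29) rose, and NKD2 (-0.40) did not pass the test. Of 47 receptor tyrosine kinases, ligands and binding proteins, 12 rose and 19 fell. EGFR fell from 1390 ± 24 to 899.3 ± 15.8 CPM, IGFBP3 from 702.4 ± 31.3 to 193.3 ± 11.8 CPM and the growth factor gene FGF18 from 7.87 ± 0.62 to 2.41 ± 0.40 CPM, while AXL (0.32), HBEGF (1.11) and KIT (1.99, at most 3.75 CPM) rose and MET was at -0.08. Of 49 guidance genes, 20 fell and 11 rose. SEMA3B and EFNB3 (-1.74) fell, as did NRP2 (-0.71), whereas NRP1, a receptor for class 3 semaphorins and VEGF, rose from 89.3 ± 1.4 to 141.8 ± 2.5 CPM. Among 32 AP-1 and immediate early genes, 17 rose and 9 fell. The Fos-family gene FOSL1 rose from 96.3 ± 4.8 to 207.2 ± 9.9 CPM. EGR1 fell from 12.3, 13.2 and 12.1 CPM to 4.22, 2.57 and 3.38 CPM. On the same list DUSP6 (1.09), SPRY4 (0.82), ETV4 (0.86) and ETV5 (1.04) rose and SPRY2 fell (-0.40).

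The 21 other enzymes and complex members of histone H3 lysine 4 methylation changed little, between -0.29 and 0.30. The related demethylase genes KDM5B (0.16), KDM5A (0.11) and KDM1A (0.30) rose slightly, and the methyltransferase gene KMT2C fell (-0.22), while KMT2D was at 0.01. Of 48 germline and cancer-testis genes, 10 passed the filter on low counts. Of these, PRAME rose (0.20) and MAEL (-1.69), PIWIL4 (-1.31), STAG3 (-0.78) and TEX15 (-0.22) fell. MAEL was weakly expressed, at 1.10 CPM in shNC and 0.34 CPM in shKDM5C. Of 47 genes on the REST list, 28 were tested, 14 fell and 6 rose, with a median of -0.12. REST itself rose by 0.15. GAP43 (-1.60, with a mean below 5 CPM in both groups) and SCG5 (-1.04) fell, and GRIN2A (1.08) and BEX1 (1.04) rose.

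**Figure D3:**
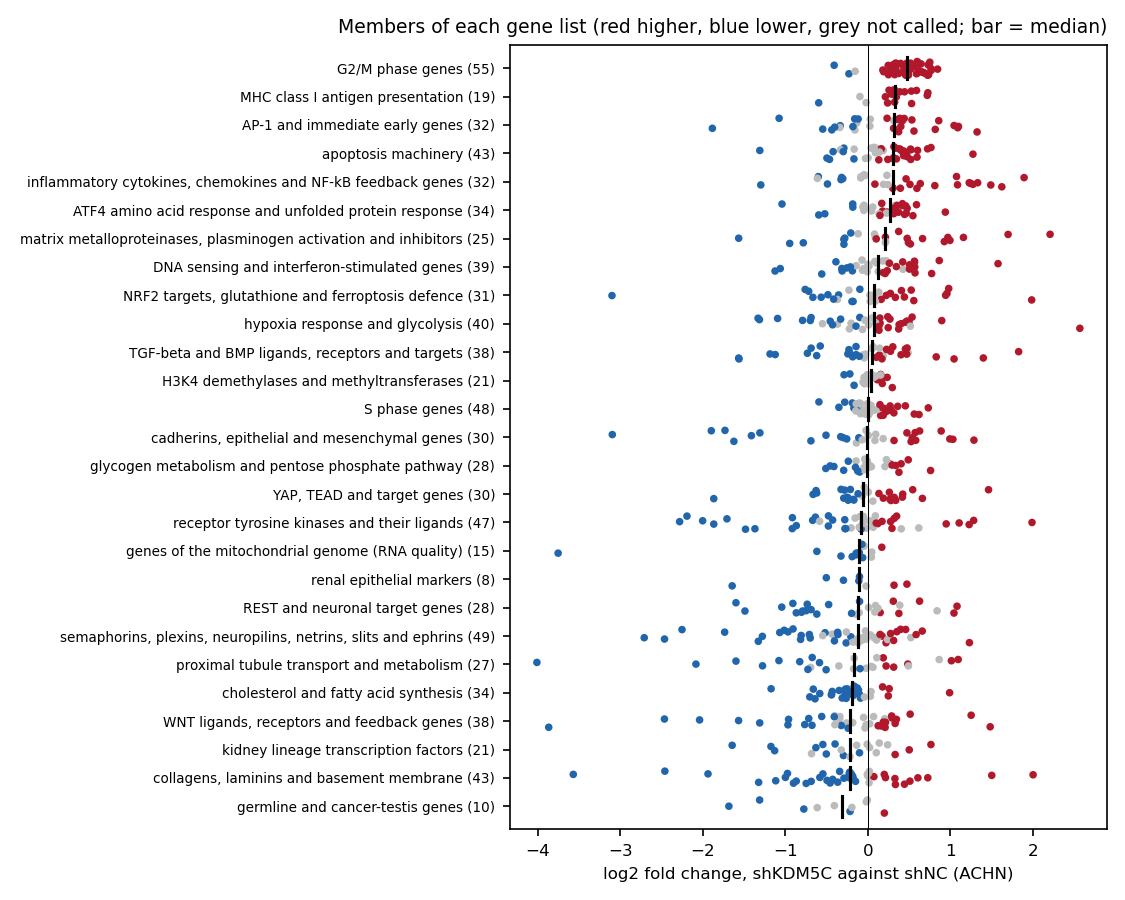
Log2 fold change of shKDM5C against shNC for each tested member of the lists with at least 5 tested genes (number in brackets), red where the gene rose, blue where it fell and grey where it did not pass the test, with a bar at the median. G2/M genes lie almost wholly to the right (52 of 55 rose), sterol and lipid synthesis genes mostly to the left (27 of 34 fell), and the epithelial and mesenchymal list spreads to both sides.

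The changes also had a pattern by chromosome. On chromosome 7, 44.9% of 856 tested genes fell and 13.8% rose, with a median log2 fold change of -0.21. On chromosome 9, 46.5% of 649 fell and 11.2% rose, with a median of -0.19. Elsewhere the median by chromosome lay between -0.09 (chromosome 8) and 0.10 (chromosome 18). Over genes of at least 5 CPM, the median difference from the shNC mean on chromosome 7 was -0.15, -0.14 and -0.15 in the 3 shKDM5C libraries, and on chromosome 9 it was -0.14, -0.14 and -0.15, while the 3 shNC libraries stayed between -0.01 and 0.01 on both. In windows of 10 megabases with at least 20 tested genes, all 13 windows of chromosome 7 and 9 of the 10 windows of chromosome 9 had a median below 0. The lowest window of the genome lay at 40 to 50 megabases of chromosome 10, with a median of -0.59 over 63 genes. Several genes described above lie on chromosome 7, among them IGFBP3, EGFR, MET and the riser IL6. In Dsh against shYY1, the medians of chromosomes 7 and 9 were -0.31 and -0.22, that of chromosome 8 was -0.25, and those of chromosomes 17, 18 and 13 were 0.38, 0.28 and 0.23. On chromosome 7 the shYY1 libraries themselves lay at 0.18 to 0.19 against shNC and the Dsh libraries at -0.16 to -0.12, and on chromosome 9 they lay at 0.10 to 0.11 and -0.15 to -0.14. RNA alone does not show the number of chromosome copies, and what part it has in these shifts was not tested. Without the genes of chromosomes 7 and 9, 374 genes were lower and 101 higher past the study threshold.

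**Figure D4:**
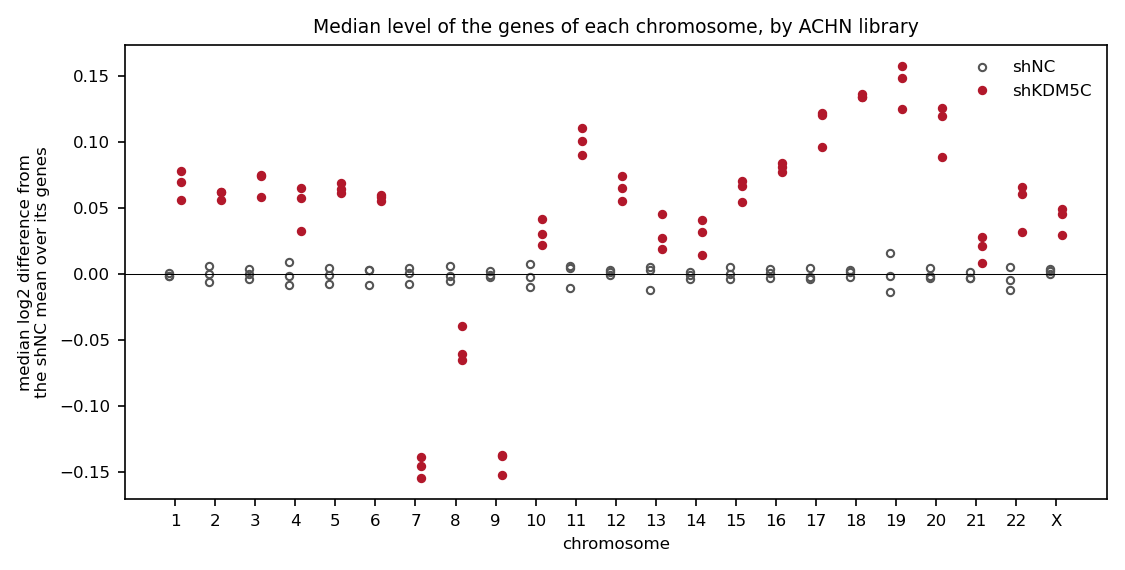
Median over the genes of each chromosome (at least 5 CPM) of the log2 difference from the shNC mean, 1 point per ACHN library, open for shNC and filled for shKDM5C. The shKDM5C points of chromosomes 7 and 9 lie near -0.14 in all 3 libraries, while those of most other chromosomes lie above 0.

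Genes past the threshold differed from the rest in their promoters as well. A CpG ratio of at least 0.6 (observed over expected CpG in the 250 bases upstream) was found for 85.7% of protein-coding genes tested with a promoter entry, 67.8% of the genes that fell past the threshold (166 of 245) and 47.6% of those that rose (20 of 42). Of the protein-coding genes that rose past the threshold, 60.9% had an entry, against 81.0% of all tested. Control level differs between these sets too, as given above, and its part in this difference was not tested. Of the 24 genes with the largest fold changes, the lowest and the highest ratio among those with an entry belonged to SP140 (0.244, chr2:230225486-230225735, forward strand) and LBH (0.976, chr2:30231284-30231533, forward strand; GRCh38), both risers. Their windows are shown with each CpG in capitals.
SP140: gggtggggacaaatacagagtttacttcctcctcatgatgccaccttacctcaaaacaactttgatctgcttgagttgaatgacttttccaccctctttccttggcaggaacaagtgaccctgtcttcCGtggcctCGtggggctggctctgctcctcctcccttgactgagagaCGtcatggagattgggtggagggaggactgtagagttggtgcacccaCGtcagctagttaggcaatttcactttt
LBH: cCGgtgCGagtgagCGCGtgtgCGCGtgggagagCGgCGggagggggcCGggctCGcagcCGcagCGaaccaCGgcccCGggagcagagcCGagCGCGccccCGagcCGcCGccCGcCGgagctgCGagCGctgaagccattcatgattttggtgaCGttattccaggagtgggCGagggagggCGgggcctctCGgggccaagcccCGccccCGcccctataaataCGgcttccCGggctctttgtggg

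KDM5C knockdown on a YY1-depleted background (Dsh against shYY1, 3 libraries each, none of them part of the shKDM5C against shNC comparison) left 45.0% of KDM5C by the fitted ratio, against 60.2% in shKDM5C. Dsh cells were infected again and also selected by green fluorescence. Whether the shYY1 cells carry a matching GFP control vector is not stated. The effects of these steps and of lower KDM5C therefore cannot be told apart in Dsh against shYY1. In that comparison 32.7% of 16414 genes were lower and 32.0% higher. Of the 433 genes that fell past the threshold in shKDM5C, 375 were tested there, of which 227 were lower (60.5%) and 43 higher. Of the 108 that rose, 84 were tested, of which 54 were higher (64.3%) and 14 lower. ANGPTL4 rose further, from 13.6 ± 2.04 to 267.6 ± 7.47 CPM, and PAX2 (log2 fold change -3.97), IGFBP3 (-3.77), S100A4 (-5.57), KIAA0040 (-4.75), MT-ATP8 (-5.52) and CDH1 (-2.98) fell further or as far. COL1A1 was at 156.4 ± 2.99 CPM in shYY1 and 133.4 ± 8.33 CPM in Dsh, a difference of -0.23. Other genes went the opposite way. FN1 rose from 865.4 ± 36.5 to 6142 ± 246 CPM, and EDIL3, LBH, SPHK1, HMOX1, CCL2 and EFEMP1 had the other sign with an adjusted p below 0.05.

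The list medians showed the widest contrast for G2/M genes. Relative to shNC, the median over the 55 genes was 0.50, 0.51 and 0.47 in the shKDM5C libraries, 0.31, 0.28 and 0.30 in the shYY1 libraries, and -0.37, -0.30 and -0.37 in the Dsh libraries. Of the 52 genes that rose in shKDM5C against shNC, 49 fell in Dsh against shYY1 and 2 rose. PLK1 was at 164.4 ± 3.16 CPM in shYY1 and 105.3 ± 1.20 CPM in Dsh (log2 fold change -0.64, adjusted p = 1.06e-09). The ATF4 and unfolded protein list turned in the same way, with 13 of 20 risers lower in Dsh. Sterol and lipid genes kept their direction, 22 of 27 that fell in shKDM5C also falling in Dsh against shYY1, and so did cytokine and NF-kB genes (13 of 18 risers). The difference between the backgrounds was not itself tested.

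**Figure D5:**
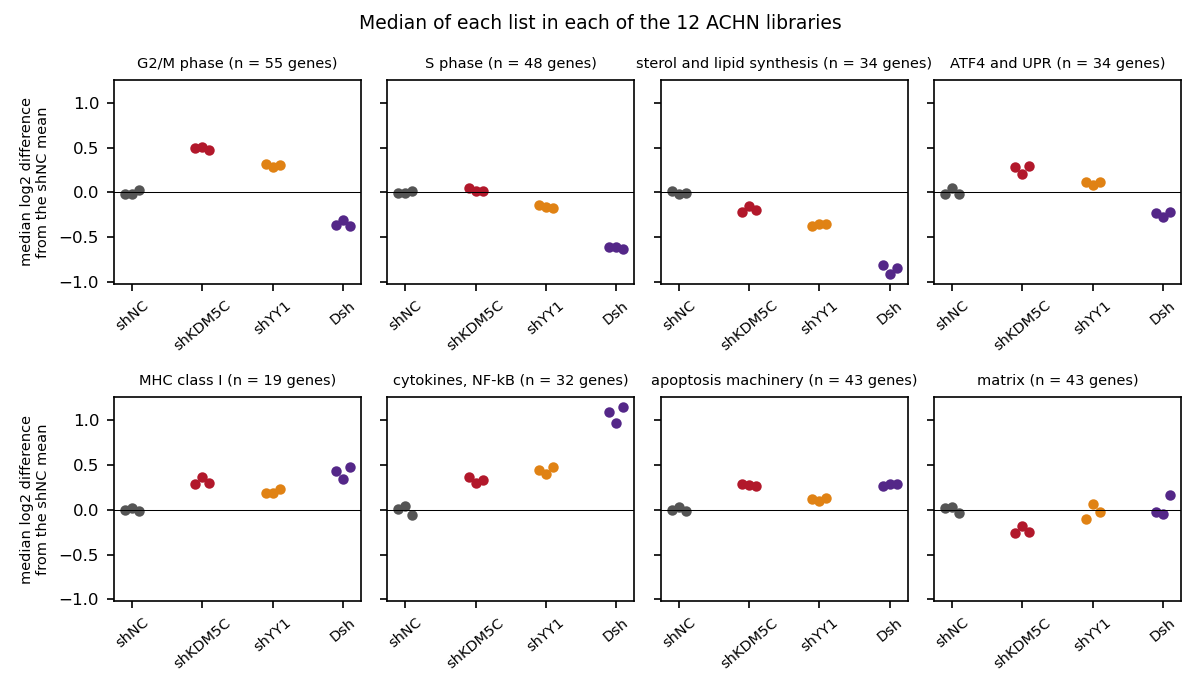
Median over the tested genes of 8 lists of the log2 difference from the shNC mean, 1 point per ACHN library in the 4 groups shNC, shKDM5C, shYY1 and Dsh. G2/M genes lie near 0.5 in shKDM5C and below -0.3 in Dsh, while sterol and lipid genes lie below 0 in the 3 knockdown groups.

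In HK-2 cells the knockdown left 29.9% of KDM5C by the fitted ratio. The library of shKDM5C replicate 1 stood apart, with 11.8% of its counts from the mitochondrial genome against 5.13% to 5.52% in the other 5, so counts and named genes are given with and without it. With it, 0.656% of 16161 genes were lower and 0.668% higher, and of the 433 genes that fell in ACHN, 272 were tested and 12 were lower and 1 higher, while of the 108 that rose, 58 were tested and 2 were higher. Without it, 10.9% of 16642 genes were lower and 11.5% higher, and 59 of 287 tested fallers were lower and 32 higher, and 13 of 59 tested risers were higher and 6 lower. The difference of the effect between the cell lines, tested as an interaction over the 12 libraries, passed an adjusted p of 0.05 for 2140 of 17948 genes (11.9%), and for 6289 of 18527 (33.9%) without that library. NPNT was at 242.5 ± 9.23 CPM in HK-2 shNC and 281.2 ± 8.34 CPM in HK-2 shKDM5C, and the effects differed by -4.09 (adjusted p = 6.67e-09, edgeR), or by -4.07 without replicate 1. CDH1 was at 1.34 ± 0.599 and 3.91 ± 0.776 CPM (log2 fold change 1.55, adjusted p = 0.117, or 1.70 and 0.000264 without replicate 1), with a difference of -4.65, or -4.79 without it. PAX2 was at 9.78 ± 1.73 and 26.8 ± 10.1 CPM (log2 fold change 1.46, adjusted p = 0.086), and without replicate 1 it rose by 1.72 (adjusted p = 5.09e-10). The difference between the lines was -3.10 (adjusted p = 0.00017), or -3.35 without that library. CCL2 rose in ACHN and went from 7.19 ± 1.69 to 19.8 ± 4.79 CPM in HK-2 (log2 fold change 1.46, adjusted p = 0.0475). That call rests on the setting: the adjusted p was 1.03e-08 without shKDM5C replicate 1, 0.147 to 0.282 without any other 1 library and 0.0933 with a replicate block. The difference between the lines was 0.17 (adjusted p = 0.74), which does not show that the effects are alike. The median of the G2/M list was 0.11 in HK-2 with all libraries and 0.03 without replicate 1, where 6 of its 55 genes were higher and 6 lower.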

How the data were processed

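RNA was extracted with TRIzol and sequenced as paired reads on an Illumina instrument. The values are raw gene counts as deposited: the authors aligned reads with HISAT2 (2.0.5) and counted them with featureCounts. The methods and the submitters' processing notes give version 1.5.0-p3 and hg38, whereas the file headers give 2.0.1 with GRCh38 and Ensembl release 84, with no strand option, so a gene and an overlapping antisense gene cannot be told apart. Of the count tables, 18 were used, each with 60675 genes. Groups came from the sample titles. Rows without a gene symbol, 4117 of them with 0.231% of the counts, were kept under their identifiers.

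Genes were filtered with filterByExpr and tested with the quasi-likelihood test of edgeR (4.0.16, R 4.3.3) on TMM-scaled counts, 2 groups at a time, and p-values were adjusted across every tested gene by Benjamini-Hochberg. The difference between cell lines was an interaction term over 12 libraries. CPM values are per TMM-scaled library, scaled over the ACHN and the HK-2 libraries separately, so CPM levels are compared within a cell line only. The tests were run on simulated data with 200 changed genes. Unchanged genes made up 5.24% of the calls for ACHN and 7.55% for Dsh against shYY1. They made up 11.3% for HK-2 and 2.24% for the difference between the lines. Far more than 200 genes were called in the real ACHN comparisons, so the simulation does not cover that setting. An exact permutation test of 3 against 3 libraries cannot go below 0.1, so none is given. Depth was 15926561 to 24272298 counts per library. Named genes were the 12 with the largest fold change in each direction (at least 10 CPM in the higher group, protein-coding, past the study threshold, no overlap), the 6 with the largest CPM difference in each direction, and list members. The CPM differences were ranked among protein-coding genes outside the mitochondrial genome with an adjusted p below 0.05. Some genes are not reported here. The gene lists, the members and the comparisons were chosen with earlier results of these data known. Fewer cells of a type and less RNA per cell cannot be told apart in such samples. Replicate numbers did not pair the libraries. Alternatives were DESeq2 (1.42.0), other scalings, no filter, each library left out and a replicate block. Promoter sequences came from RefSeq (GRCh38.p14 table), and 10626 of 13111 tested protein-coding genes had an entry.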

Additional observations from a re-analysis of the deposited data

Results flagged for a closer look

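The effect of the knockdown differed between ACHN and HK-2 cells, by a test of the difference itself, for 2140 of 17948 genes (edgeR interaction, adjusted p below 0.05), and for 6289 of 18527 genes without HK-2 shKDM5C replicate 1, the library with 11.8% mitochondrial counts. Values follow for genes with the largest fold changes or CPM differences in ACHN, each as the log2 effect in ACHN minus that in HK-2.

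The effect was more positive in ACHN for KCNK3 (2.24), SPHK1 (2.951), SERPINE2 (2.172), IL6R (1.444), HMOX1 (1.516), ZNF114 (1.304), CAVIN2 (2.237), MYEOV (2.199), ITGA3 (1.276), MT2A (1.898) and HSPA8 (0.5625).

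It was more negative in ACHN for SMTNL2 (-4.093), FOLR1 (-3.17), NPNT (-4.086), MT-ATP8 (-5.137), COL1A1 (-2.966), CDH1 (-4.651), KIAA0040 (-1.507), SEMA3B (-1.641), EDIL3 (-3.426), COL8A2 (-2.857), IGFN1 (-1.533), CD24 (-1.691), FN1 (-1.184) and ITGB1 (-1.774). The value of MT-ATP8 was -3.75 without HK-2 shKDM5C replicate 1, and its effect in HK-2 went from 1.41 to -0.0018. MT-ATP8 shares exon bases with MT-ATP6.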

How the results depend on the processing

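In ACHN, the counts of genes past the study threshold stayed within 1.5 times of 433 lower and 108 higher under DESeq2, other scalings and the omission of chromosomes 7 and 9, an alternative chosen after seeing the data. Without the filter on low counts they were 1076 and 310. Leaving out each library in turn gave 462 to 554 lower and 120 to 142 higher genes past the threshold, and 4075 to 4330 lower and 4339 to 4544 higher at an adjusted p below 0.05. These counts past the threshold all lay above 433 and 108. The filter on low counts was applied anew each time, and its part in this was not tested. Scaling by total counts shifted the median of all genes to -0.05 and gave 5083 lower and 4044 higher genes. Of the named genes' alternatives, 1652 kept call and direction, 51 lost the call, 9 gained it, 17 moved and none reversed, and the calls of MET, IFIT1, MCM2, KDM5A, REST, PCNA and HSPA5 depended on the setting.

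Same-numbered ACHN libraries showed no pairing. The correlations of their deviations from the group means (log2 CPM per gene), shNC with shKDM5C, were 0.003, 0.025 and 0.022. With a replicate block the ACHN counts past the threshold were 436 and 108. In HK-2 the block gave 0 lower and 0 higher genes with edgeR, where 912 and 858 had an unadjusted p below 0.05, DESeq2 gave 380 and 427, and no filter gave 198 and 207. Leaving out each HK-2 library gave 0 to 1808 lower and 0 to 1910 higher genes, the highest without shKDM5C replicate 1, and 0 lower without any 1 of the 3 shNC libraries, where 631 to 675 lower and 656 to 783 higher genes had an unadjusted p below 0.05. For the difference between the lines, the block gave 528 lower and 429 higher genes, and leaving out each library 683 to 2852 lower and 576 to 3437 higher, again highest without HK-2 shKDM5C replicate 1. The cause was not tested. In Dsh against shYY1, leaving out each library gave 4999 to 5326 lower and 4778 to 5295 higher genes.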
